A study of Mus musculus with 22 samples.

Results

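Transcripts of 10 synaptotagmin genes, Syt1, Syt2, Syt3, Syt4, Syt5, Syt7, Syt9, Syt11, Syt12 and Syt17, were examined by RNA-seq of mouse spinal cord, out of 21995 genes in the deposited table of counts. The genes were taken by name through their Ensembl identifiers, with no threshold on a measured value. All 10 were counted in every library and passed the filter on low counts in both comparisons. For aging, 8 Young mice at 3–4 months were compared with 8 Old mice at 18–24 months, all of them male and wild type on the C57BL/6 strain. For amyotrophic lateral sclerosis (ALS), 3 symptomatic SOD1G93A mice (labelled G93a), which carry a transgene for mutant human superoxide dismutase 1, were compared with 3 wild-type mice (labelled WT_G93a_Control), again on C57BL/6 and all at 5–6 months. Each library came from the spinal cord of a separate mouse, pushed out of the spine in cold saline. The aging libraries were made with the Roche KAPA HyperPrep kit and the ALS libraries with the Illumina TruSeq kit, so that library kit and experiment cannot be told apart, and the comparisons share no library. SOD1G93A mice, here of the high copy line, serve as a model of familial ALS through added copies of the human gene, with the mouse Sod1 gene still in place.

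Synaptotagmins are membrane proteins with a pair of C2 domains, modules that in many members bind calcium and phospholipid. Syt1, Syt2 and Syt9 sit on synaptic vesicles and act as the calcium sensors that trigger fast, synchronous transmitter release, and Syt2 is the form used by much of the spinal cord and hindbrain and by motor nerve terminals at the neuromuscular junction. Syt7 binds calcium more tightly and has been tied to asynchronous release, facilitation and lysosome exocytosis, Syt3 to calcium-dependent membrane traffic including uptake of glutamate receptors, and Syt5 to dense-core vesicles. Syt4 and Syt11 carry a substitution that weakens calcium binding, and Syt12 is also regarded as a member that does not sense calcium. Syt17 lacks the membrane-spanning segment of the other members.

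The genes lie on 6 chromosomes of the GRCm38 build, among them Syt2 at chr1:134646677-134762593 and Syt3 at chr7:44384102-44400187, both on the plus strand. Syt7 was placed at chr19:10389090-10453180 on the plus strand, and Syt12 at chr19:4445908-4477447 and Syt11 at chr3:88744700-88775164 on the minus strand. Syt2 overlaps the gene Ppp1r12b on the opposite strand, and whether the authors counted by strand is not given in the sources used here. Ppp1r12b itself had 316 to 586 counts per aging library and 591 to 924 per ALS library, and its log2 fold change was -0.17 ± 0.05 (SE, adjusted p = 0.0075) in aging and -0.21 ± 0.09 (SE, adjusted p = 0.107) in ALS. Syt3 overlaps 1700008O03Rik on the opposite strand, which had 9 to 45 counts per library. Syt5, Syt9, Syt11 and Syt17 overlap no other annotated gene.

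The counts of Syt2 add up the transcripts of separate start sites. RefSeq promoter windows on GRCm38.p6 were found for 5 of the 10 genes, 7 windows in all, and those of Syt2 and Syt3 are shown because these genes had the most negative changes in SOD1G93A mice. Each window holds the 250 bases before the start, with capitals marking GGGCGG or its reverse complement, the GC box, which no other motif searched here overlapped.

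Syt2, upstream start, chr1:134646362-134646611, plus strand: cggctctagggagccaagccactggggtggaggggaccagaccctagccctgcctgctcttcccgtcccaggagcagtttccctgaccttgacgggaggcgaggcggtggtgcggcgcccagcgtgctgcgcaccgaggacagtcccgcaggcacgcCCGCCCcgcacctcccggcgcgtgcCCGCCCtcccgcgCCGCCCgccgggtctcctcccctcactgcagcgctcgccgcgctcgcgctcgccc

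Syt2, downstream start, chr1:134709050-134709299, plus strand: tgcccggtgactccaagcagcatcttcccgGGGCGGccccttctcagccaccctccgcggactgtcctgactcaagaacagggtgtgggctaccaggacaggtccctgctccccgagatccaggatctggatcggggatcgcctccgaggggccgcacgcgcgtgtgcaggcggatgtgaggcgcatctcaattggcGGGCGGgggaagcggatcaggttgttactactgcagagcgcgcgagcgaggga

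Syt3, chr7:44383876-44384125, plus strand: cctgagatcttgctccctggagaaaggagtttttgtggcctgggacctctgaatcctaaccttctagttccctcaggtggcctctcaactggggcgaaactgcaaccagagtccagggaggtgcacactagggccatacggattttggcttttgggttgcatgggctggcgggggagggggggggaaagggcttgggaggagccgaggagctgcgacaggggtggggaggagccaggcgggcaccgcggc

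The upstream Syt2 window held 3 GC boxes and 30 CpG dinucleotides, and the downstream window held 2 and 22. The Syt3 window held no GC box and 8 CpG. GC boxes on either strand were in 32.7% of all 32851 windows of this length. TATAAA (12.4% of windows), TGACGTCA (1.55%) and CACGTG (6.02%), searched on both strands, were in none of the 7 windows of these genes. Such matches describe the letters only.

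The libraries held between 5078092 and 9358055 counts in the Young and Old groups and between 9675610 and 13219797 in the ALS experiment. Markers of neurons were present in every group, while Acta1, Ckm and Myh4, genes of skeletal muscle, summed to at most 3.36 CPM (counts scaled to library size) in any library. In SOD1G93A mice the motor neuron marker Chodl went from 36.0 to 4.04 CPM (edgeR adjusted p = 2.6e-05). Among SOD1G93A libraries, d4437 stood apart with a Gfap level (an astrocyte gene) of 6110 CPM against 11229 and 10436, and a C1qa level (a microglial gene) of 276 CPM against 718 and 514. Among Old libraries, d149034 stood apart with the lowest Gfap level, 1999 CPM, where the other Old libraries had 2589 or more. Bulk RNA cannot tell fewer cells of a type from less RNA per cell, and this holds for every result below.

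Syt11 and Syt2 were the leading synaptotagmin transcripts of the spinal cord. Levels of different genes were compared as FPKM, which corrects for gene length. In Young mice Syt11 had the highest level, 279 ± 14.1 FPKM (SD, n = 8), and Syt2 followed with 144 ± 8.52 FPKM. Syt1, Syt4 and Syt3 came next with 43.2 ± 3.09, 40.2 ± 3.22 and 36.8 ± 3.96 FPKM, and the ranges of these 3 genes over the Young libraries overlapped. Syt7 at 26.8 ± 0.60 FPKM, Syt5 at 18.4 ± 2.86, Syt12 at 9.97 ± 0.77, Syt9 at 5.92 ± 0.33 and Syt17 at 2.37 ± 0.51 formed the lower part of the order, with no overlap between neighbours. Old mice had the same order on the mean outside the overlapping trio of Syt1, Syt3 and Syt4, with Syt11 at 254 ± 6.90 and Syt2 at 131 ± 12.1 FPKM.

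**Figure D1:**
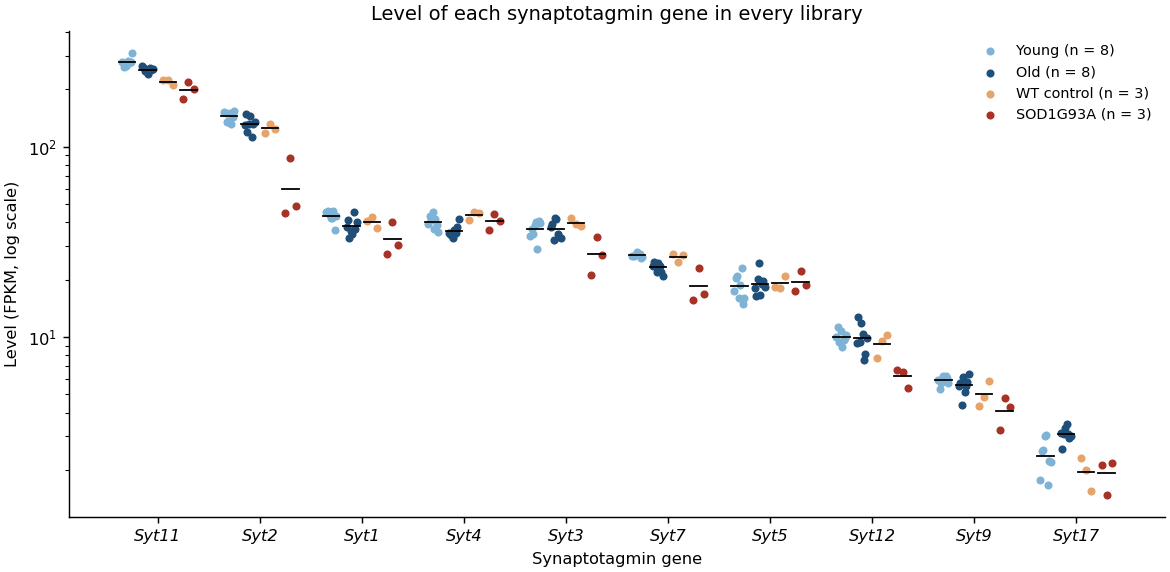
Level of each synaptotagmin gene (FPKM, log axis) in every library, with points for libraries and a line for the mean of each group (8 Young, 8 Old, 3 WT control, 3 SOD1G93A). Syt11 and Syt2 lie above the other genes in each group, and the 3 SOD1G93A libraries lie between 44.9 and 86.8 FPKM for Syt2, where the WT control libraries lie between 118 and 132.

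The order in WT_G93a_Control mice matched that of Young mice except within the overlapping trio, where Syt4 at 43.8 ± 2.24 FPKM (SD, n = 3) exceeded Syt1 at 40.4 ± 2.69 and Syt3 at 39.8 ± 2.11. In SOD1G93A mice Syt11 was at 199 ± 21.1 FPKM and Syt2 at 60.1 ± 23.2 FPKM. The lowest SOD1G93A library for Syt2, 44.9 FPKM, was just above the highest for Syt4, 44.5 FPKM. Syt5 at 19.5 ± 2.499 FPKM and Syt7 at 18.5 ± 3.92 FPKM exchanged places on the mean there, with ranges that overlapped. Summed over the 10 genes, the level was 607 ± 16.3 FPKM in Young, 557 ± 15.95 in Old, 530 ± 11.9 in WT_G93a_Control and 410 ± 66.3 in SOD1G93A mice.

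In old spinal cord, Syt7, Syt11 and, close to the threshold, Syt2 fell and Syt17 rose, each by less than a log2 unit. Thus 3 of the 10 genes were lower at an adjusted p under 0.05 (edgeR's quasi-likelihood test, Benjamini-Hochberg over all genes tested), against 12.9% of all 13647 genes tested, and 1 was higher, against 13.5%. DESeq2 gave 5 lower, adding Syt1 (adjusted p = 0.049) and Syt4 (adjusted p = 0.043), and 1 higher. No synaptotagmin passed the study's rule, which also asks for a log2 fold change beyond 1. Of all genes, 0.044% were lower and 2.18% higher by that rule. The median log2 fold change of the 10 was -0.11, where that of all genes tested was -0.003. For none of the 10 did the Young and Old libraries separate without overlap, as they did for 1.66% of all genes in the lower and 3.66% in the higher direction.

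Among the fast calcium sensors, Syt2 ranged from 869 to 974 CPM with a median of 917 in Young libraries, and from 791 to 895 with a median of 847 in Old libraries. The Old group was lower on the whole, but its upper libraries overlapped the lower Young libraries. The log2 fold change of Syt2 was -0.11 ± 0.04 (SE, adjusted p = 0.042), a fall of 7.25% with a 95% interval of -0.18 to -0.03 on the log2 scale. This call was close to the threshold. It was lost when any of 9 of the 16 libraries (4 Young, 5 Old) was left out, with an adjusted p of up to 0.088. It was also lost at 0.052 with 10 counts asked of every library, at 0.30 in a fit of all 22 libraries, and at 0.11 with limma on the deposited log2 FPKM values. Syt1 ranged from 167 to 223 CPM with a median of 203 in Young libraries and from 161 to 225 with a median of 173 in Old libraries. Its log2 fold change of -0.17 ± 0.06 (SE) missed the threshold, with an adjusted p of 0.057. The highest Old library for Syt1 was d149034, the library with the lowest Gfap and also the lowest Old level of Syt2. Without d149034 the adjusted p of Syt1 was 0.0022 (log2 fold change -0.22), and that of Syt2 was 0.052 (-0.09). Syt1 also passed without the lowest Young library, d149019, where 5 of the 10 genes were called lower (Syt1 adjusted p = 0.016). Syt9, the scarcest of the trio, was at 20.2 ± 1.14 CPM (SD, n = 8) in Young and 18.6 ± 1.62 in Old mice (log2 fold change -0.12, adjusted p = 0.20).

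Syt7, the tight calcium binder of asynchronous release, had the smallest adjusted p of the 10 genes in aging. It ranged from 177 to 195 CPM with a median of 188 in Young libraries and from 146 to 182 with a median of 164 in Old libraries. All but the highest Old library, d149034, were below the lowest Young library. The log2 fold change was -0.21 ± 0.04 (SE, adjusted p = 0.00084), a fall of 13.8%, and the call held whichever library was left out. Syt11, the abundant member with weak calcium binding, ranged from 1045 to 1165 CPM with a median of 1079 in Young and from 901 to 1048 with a median of 975 in Old libraries. Here too only the highest Old library, again d149034, reached the Young range. The log2 fold change of Syt11 was -0.16 ± 0.04 (SE, adjusted p = 0.0046), and this call was also kept with each library left out.

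Syt17, the member without a membrane-spanning segment, was the exception in direction. It was the lowest in level of the 10, with 35 to 79 counts per aging library. It ranged from 4.72 to 7.80 CPM with a median of 6.44 in Young and from 6.34 to 9.19 with a median of 8.25 in Old libraries. Apart from the Old library d149026 at 6.34 CPM, every Old library was above every Young library. The log2 fold change was 0.39 ± 0.12 (SE, adjusted p = 0.016), a rise of 31.3%, and it passed the threshold with each library left out (adjusted p up to 0.041).

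The other 4 genes did not pass the test in aging. Syt4, a vesicle protein with weak calcium binding, was at 166 ± 14.1 CPM (SD, n = 8) in Young and 150 ± 13.4 in Old mice, with a log2 fold change of -0.15 ± 0.06 (SE) and an adjusted p of 0.052, on the edge of the threshold. Syt3 had a log2 fold change of 0.02 (95% interval -0.09 to 0.14), Syt5 of 0.04 (-0.13 to 0.21) and Syt12 of -0.02 (-0.14 to 0.11). These intervals leave out changes as large as that of Syt17.

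**Figure D2:**
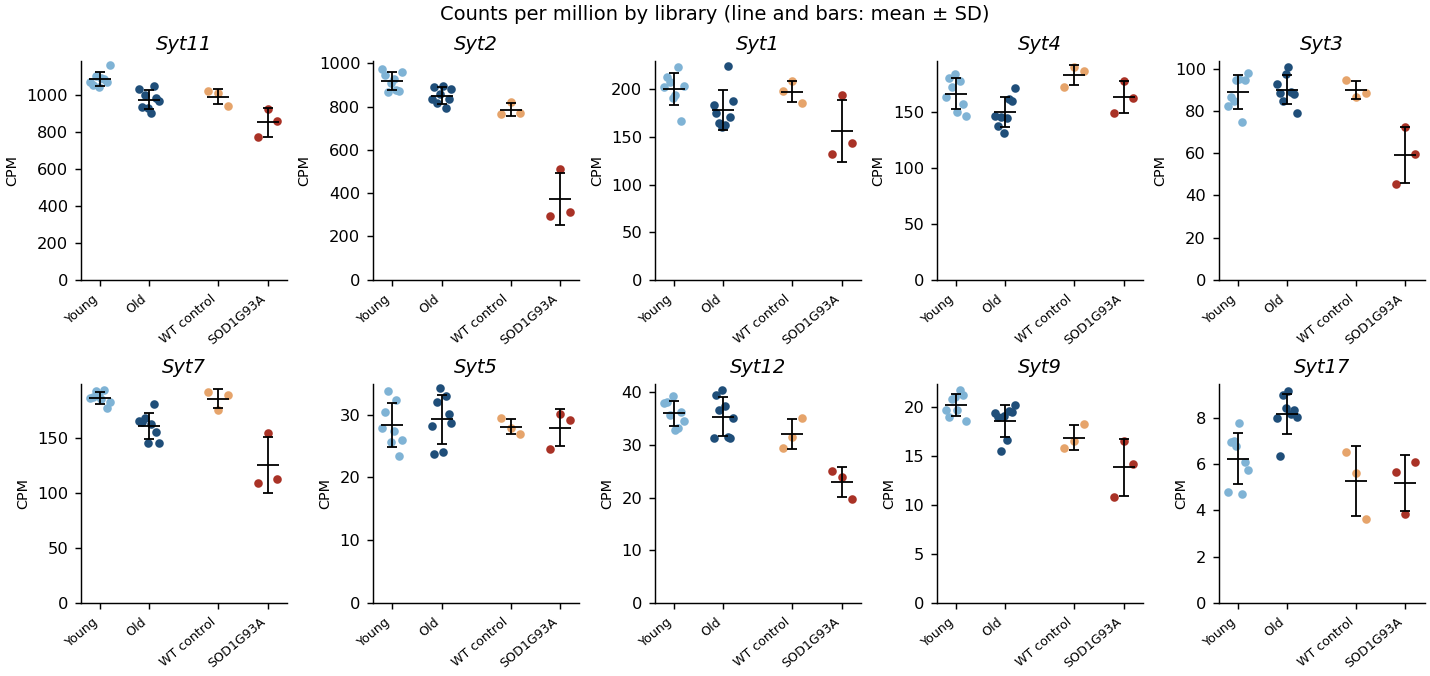
Levels in CPM of the 10 synaptotagmin genes in every library, a panel per gene with its own axis from 0, with points for libraries and a line with bars for the group mean ± SD (n = 8, 8, 3 and 3). The SOD1G93A libraries lie below the WT control libraries for Syt2, Syt3, Syt7, Syt11 and Syt12, and the Old libraries lie mostly above the Young libraries for Syt17.

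In SOD1G93A spinal cord, Syt2, Syt3, Syt7 and Syt12 fell, Syt2 by 52.2% and the others by 28.7% to 34.2%. Thus 4 of the 10 genes were lower at an adjusted p under 0.05, against 15.5% of all 14386 genes tested, and 0 were higher, against 18.4% of all genes. Only Syt2 also passed the study's rule, which 1.2% of all genes did in the lower and 8.5% in the higher direction. At an unadjusted p under 0.05 Syt1 was lower as well and 0 were higher, and DESeq2 gave 4 lower and 0 higher. The groups did not overlap for 5 of the 10 genes, all lower, where 24.7% of all genes separated in the lower and 25.7% in the higher direction. The median log2 fold change was -0.31, where that of all genes tested was 0.003.

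Syt2 was at 765, 769 and 819 CPM in the WT_G93a_Control libraries and at 296, 314 and 513 CPM in the SOD1G93A libraries. Every SOD1G93A library was below every control library, and d4437, with the lower Gfap and C1qa levels, was the closest to the controls. The log2 fold change was -1.07 ± 0.19 (SE, adjusted p = 0.0045), a fall of 52.2% with a 95% interval of -1.44 to -0.69. It stayed at an adjusted p under 0.05 with each of the 6 libraries left out (up to 0.029), with log2 fold changes from -1.36 (without d4437) to -0.92 (without d4435). Without d4435 or d4443 (-0.95) it no longer passed the study's rule of a change beyond 1. The other fast sensors did not pass. Syt1 was at 186, 198 and 209 CPM in controls and at 132, 143 and 194 in SOD1G93A mice, where the last value, from d4437, lay inside the control range. Its log2 fold change was -0.34 ± 0.14 (SE, adjusted p = 0.093), and without d4437 it was -0.52 with an adjusted p of 0.0007. Syt9 was at 16.8 ± 1.26 CPM (SD, n = 3) in controls and 13.8 ± 2.89 in SOD1G93A mice (log2 fold change -0.29 ± 0.17 SE, adjusted p = 0.22).

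Syt3, which has been tied to receptor uptake at the postsynaptic side, was at 86.4, 88.3 and 94.5 CPM in controls and at 45.3, 59.7 and 72.2 CPM in SOD1G93A mice. Its log2 fold change was -0.60 ± 0.15 (SE, adjusted p = 0.015), a fall of 34.2%. Syt7 was at 176, 189 and 193 CPM in controls and at 109, 113 and 155 in SOD1G93A mice (log2 fold change -0.57 ± 0.14 SE, adjusted p = 0.014). Syt12 was at 29.5, 31.6 and 35.2 CPM in controls and at 19.7, 24.0 and 25.1 in SOD1G93A mice (log2 fold change -0.49 ± 0.12 SE, adjusted p = 0.017). The groups were separate for all 3 genes, with d4437 the highest SOD1G93A library for Syt3 and Syt7 but not for Syt12. These calls depended on single libraries. Without the SOD1G93A library d4443 all 3 were lost, which left Syt2 as the only call, and Syt3 was also lost without the control library d4438 (adjusted p up to 0.061), Syt7 without d4438 or d4444 (up to 0.069), and Syt12 without d4441 or d4444 (up to 0.075).

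Syt11 and Syt4, the members with weak calcium binding, did not pass the test in ALS. Syt11 was at 943, 1011 and 1021 CPM in controls and at 772, 861 and 926 in SOD1G93A mice, so the groups were separate, but the log2 fold change of -0.22 ± 0.10 (SE) had an adjusted p of 0.13. Syt4 had a log2 fold change of -0.17 ± 0.09 (SE, adjusted p = 0.20). Without d4437 the adjusted p was 0.016 for Syt11 and 0.046 for Syt4, and 7 of the 10 genes were then called lower. Syt5, a protein of dense-core vesicles, was at 28.1 ± 1.24 CPM (SD, n = 3) in controls and 27.9 ± 2.95 in SOD1G93A mice (log2 fold change -0.01, 95% interval -0.22 to 0.21). Syt17, which rose in old mice, was at 5.267 ± 1.504 and 5.197 ± 1.204 CPM (log2 fold change -0.01, 95% interval -0.56 to 0.55), an interval wide enough to hold its change in aging. The sign of these last changes turned with the setting for both genes, to 0.003 for Syt5 and 0.008 for Syt17 when 10 counts were asked of every library.

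**Figure D3:**
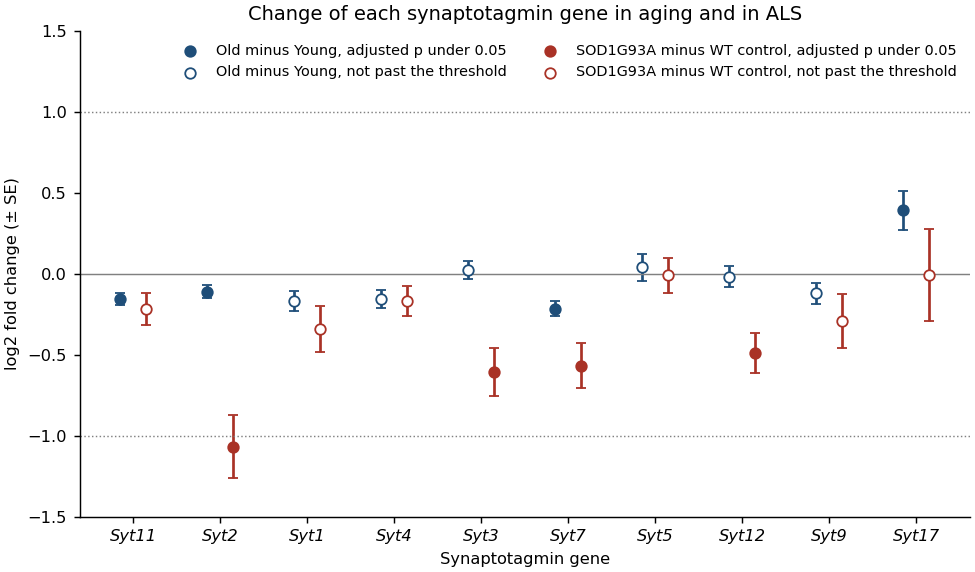
Log2 fold change ± SE of the 10 synaptotagmin genes, Old minus Young (blue) and SOD1G93A minus WT control (red), filled where the adjusted p was under 0.05, with dotted lines at log2 fold changes of -1 and 1. In ALS, Syt2 alone lies beyond -1, and in aging the 10 values lie between -0.21 and 0.39.

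The changes in the experiments were compared directly, as the ALS change minus the aging change in a fit of all 22 libraries. The ALS change was more negative for 4 of the 10 genes, against 14.2% of all 14502 genes tested, and more positive for none, against 11.6%. Syt2 differed most, by -0.99 ± 0.14 (SE, adjusted p = 2.6e-05), followed by Syt3 at -0.66 ± 0.14 (adjusted p = 0.00094), Syt12 at -0.50 ± 0.13 (adjusted p = 0.0059) and Syt7 at -0.38 ± 0.11 (adjusted p = 0.014). The difference for Syt7 lost its call without the SOD1G93A library d4435 or d4443 (adjusted p up to 0.094). This fit pools the spread of all 22 libraries, 16 of them from aging. Its SE for Syt2, Syt3 and Syt7 were below those of the ALS comparison alone (0.19, 0.15 and 0.14). For these genes the difference test thus understates the spread among SOD1G93A mice. For Syt17 the difference of -0.42 ± 0.26 (SE) had an adjusted p of 0.24, so the rise in old mice was not shown to be absent from SOD1G93A mice. For Syt11 the difference was -0.09 ± 0.08 (SE, adjusted p = 0.47) and for Syt1 -0.20 ± 0.14 (adjusted p = 0.32). Kit, age and sex differ between the experiments along with the condition, since the ALS groups were younger than the Old group and held mice of both sexes by the study's methods.

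The balance among the fast sensors was taken as the share of Syt2. Of the summed FPKM of Syt1, Syt2 and Syt9, Syt2 made up 74.6% ± 1.72 (SD, n = 8) in Young, 75.0% ± 2.81 in Old, 73.3% ± 0.86 (n = 3) in WT_G93a_Control and 61.3% ± 4.01 in SOD1G93A mice. The SOD1G93A libraries had 58.4%, 59.6% and 65.9%, and the control libraries 72.4%, 73.5% and 74.1%, with no overlap. The lowest Old library had 68.7%, below every Young library. The ratio of Syt2 to Syt1 was 3.35 ± 0.33 in Young, 3.48 ± 0.48 in Old, 3.10 ± 0.20 in WT_G93a_Control and 1.81 ± 0.31 in SOD1G93A mice. The ratio of Syt2 to Syt11 was 0.517 ± 0.031, 0.518 ± 0.053, 0.568 ± 0.035 and 0.297 ± 0.086 in the same order. In an exact two-sided permutation test each of these 3 measures gave p = 0.1 in ALS, the smallest p that 3 against 3 allows, and p = 0.74, 0.55 and 0.96 in aging, with adjusted p of 0.2 in ALS and 0.82 or more in aging over the 6 tests.

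**Figure D4:**
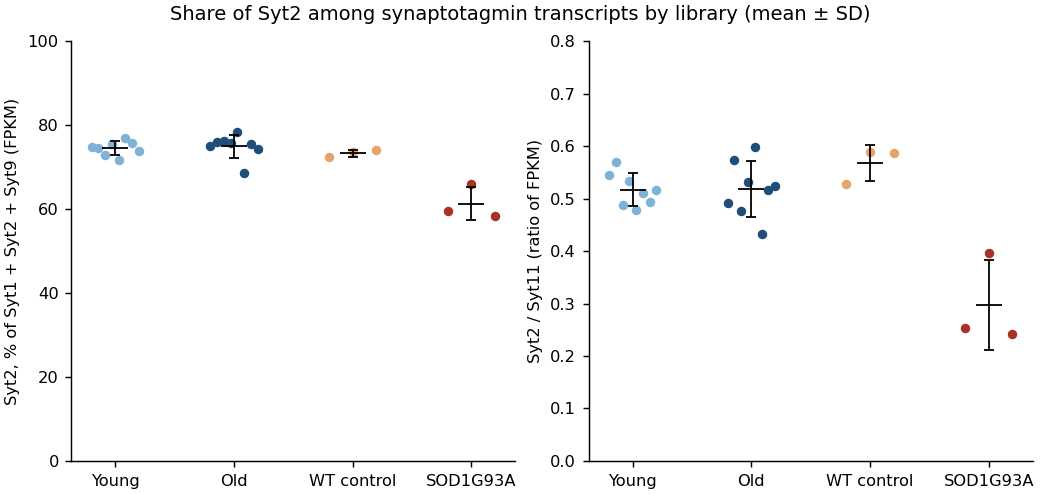
Share of Syt2 in the summed FPKM of Syt1, Syt2 and Syt9 (left, percent) and ratio of Syt2 to Syt11 (right, ratio of FPKM) in every library, with points for libraries and a line with bars for the group mean ± SD. The 3 SOD1G93A libraries lie between 58.4% and 65.9%, below the 3 WT control libraries between 72.4% and 74.1%.

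Of 7 further family members, 6 were tested, and Syt8 had at most 8 counts in any library. In aging 1 was lower (12.9% of all genes), Syt16, from 14.4 to 11.9 CPM (log2 fold change -0.28 ± 0.09 SE, adjusted p = 0.023), a call lost without d149035 (0.051) and with limma on log2 FPKM (0.057). In ALS 1 was lower (15.5% of all genes), Syt13, from 74.8 to 50.0 CPM (log2 fold change -0.58 ± 0.14 SE, adjusted p = 0.014), and 1 was higher (18.4% of all genes), Syt15, from 1.09 to 3.98 CPM (1.88 ± 0.43 SE, adjusted p = 0.011). Syt13 was lost without d4441 or d4443 (adjusted p up to 0.068), and Syt15 without d4443 (0.053). Of 12 genes for related proteins that carry C2 domains, 8 were tested in aging. With edgeR or DESeq2 0 passed at an adjusted p under 0.05, while 1 was higher at an unadjusted p under 0.05. In ALS 9 were tested, 3 were lower (15.5% of all genes) and 1 was higher (18.4% of all genes). Rph3a, the Rab3 effector rabphilin, went from 845 to 465 CPM (log2 fold change -0.86 ± 0.16 SE, adjusted p = 0.0055). Doc2a, a calcium sensor of spontaneous and asynchronous release, went from 28.1 to 15.1 CPM (-0.90 ± 0.23 SE, adjusted p = 0.017), and Esyt1, a tether between endoplasmic reticulum and plasma membrane, from 119 to 78.6 CPM (-0.60 ± 0.11 SE, adjusted p = 0.0042). Sytl4, known as granuphilin, was higher with 17 to 28 counts per SOD1G93A library against 7 to 10 in controls (1.31 ± 0.38 SE, adjusted p = 0.026), and its adjusted p was 0.060 with DESeq2 and 0.59 with limma on the log2 FPKM values. The calls of Doc2a (adjusted p up to 0.078) and Sytl4 (up to 0.12) were each lost without any of d4438, d4441, d4444 and d4443.

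Transcripts of the release machinery with which synaptotagmins work were mostly lower in SOD1G93A mice. Of 29 genes of the release machinery, 25 were lower and 0 higher in ALS, with edgeR, with DESeq2 and at an unadjusted p under 0.05, against 15.5% and 18.4% of all genes, and the median log2 fold change was -0.66 where that of all genes was 0.003. The smallest adjusted p values belonged to Bsn (bassoon, a scaffold of the active zone) at -0.72 ± 0.11 (SE, adjusted p = 0.0026), and to the vesicle proteins Sv2b at -1.18 ± 0.20 (adjusted p = 0.0034) and Sv2c at -1.11 ± 0.20 (adjusted p = 0.0042). In aging 14 of the 29 were lower and 2 higher, against 12.9% and 13.5% of all genes, with a median of -0.15 where that of all genes was -0.003. Those with the smallest adjusted p were the priming factor Unc13a at -0.37 ± 0.04 (SE, adjusted p = 7.8e-07), the vesicle GTPase gene Rab3c at -0.42 ± 0.06 (adjusted p = 2.2e-05) and the active zone gene Rims2 at -0.35 ± 0.06 (adjusted p = 8.9e-05). Napa, which recycles used fusion complexes, rose by 0.21 ± 0.04 (SE, adjusted p = 0.00012), and Rab3a by 0.14 ± 0.04 (adjusted p = 0.012). Napa was lost with limma on log2 FPKM (adjusted p = 0.14) and Rab3a in the fit of all libraries (adjusted p = 0.11).

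**Figure D5:**
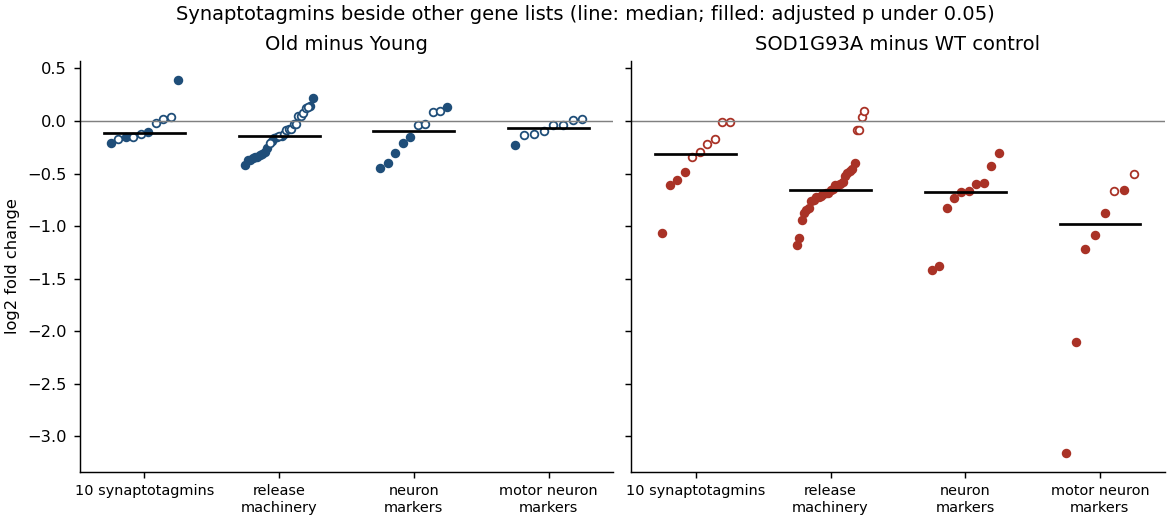
Log2 fold change of each gene tested in 4 lists, the 10 synaptotagmins, the release machinery, the neuron markers and the motor neuron markers, for Old minus Young (left) and SOD1G93A minus WT control (right), with filled points where the adjusted p was under 0.05 and a line at the median. In ALS the medians are -0.31, -0.66, -0.67 and -0.98 from left to right.

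Markers of neurons, microglia and astrocytes moved along with these changes in ALS. Those of oligodendrocytes (0 of 6) and endothelium (0 of 3) did not pass there in either direction. The counts of this paragraph stand against 15.5% of all genes lower and 18.4% higher in ALS and 12.9% and 13.5% in aging. In ALS all 10 neuron markers were lower (median log2 fold change -0.67), and their summed level was 8103 to 8673 CPM in controls and 3626 to 5354 in SOD1G93A libraries. Of 8 motor neuron markers 6 were lower (median -0.98), with sums of 287 to 322 and 141 to 156 CPM. Inhibitory neuron markers were lower in 3 of 4, excitatory in 1 of 3 and parvalbumin neuron markers in 3 of 3. In the opposite direction, 7 of 9 microglial markers (sums of 366 to 448 and 1436 to 2755 CPM) and 5 of 6 astrocyte markers (5239 to 5777 and 10822 to 17296 CPM) were higher. In aging, 5 of 10 neuron markers were lower and 1 higher (median -0.09), 1 of 8 motor neuron markers was lower, and 8 of 9 microglial markers were higher, with sums of 361 to 401 CPM in Young and 597 to 980 in Old libraries. Inhibitory neuron markers were lower in 3 of 4 in aging, and parvalbumin neuron markers in 2 of 3, with 1 higher. Astrocyte markers were higher in 3 of 6 and lower in 1, and oligodendrocyte markers were lower in 2 of 6 and higher in 1. Of the sensory neuron markers, Trpv1 and Scn10a had at most 5 counts in any library, and Avil was higher in ALS, with 21 to 47 counts per SOD1G93A library against 4 to 9 in controls (log2 fold change 2.59 ± 0.41 SE, adjusted p = 0.0026). The part of these markers in the synaptotagmin changes was not tested.

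Levels were also set against the mean log2 level of the 10 neuron markers in the same library. That mean changed by -0.78 in SOD1G93A mice, so that a gene with no change in CPM stands at 0.78 on this scale, and 84.3% of all genes tested were higher without overlap, against 0.695% lower. Syt2 was among the latter. It was above the neuron mean by 0.46 to 0.53 log2 units in control libraries and by 0.02 to 0.37 in SOD1G93A libraries, a difference of -0.33. The other synaptotagmins had differences between 0.15 (Syt3) and 0.78 (Syt17). None was above that of an unchanged gene, which restates that all 10 log2 fold changes in ALS were negative. In aging, where an unchanged gene stands at 0.13, no synaptotagmin separated on this scale (0.242% of all genes did in the lower and 6.29% in the higher direction), and the difference was 0.02 for Syt2 and -0.03 for Syt11. In d4437, where Syt2 was at 513 CPM against 296 and 314 in the other SOD1G93A libraries, general neuron markers were higher as well, with Nefl at 1261 CPM against 733 and 831 and Rbfox3 at 118 against 79.3 and 88.5. The motor neuron gene Slc18a3, the vesicular acetylcholine transporter, was at 26.1 CPM there against 28.5 and 26.7 CPM, and Chodl at 4.53 against 3.64 and 3.94 CPM. That library was the highest of the SOD1G93A libraries for 8 of the 10 synaptotagmins. The share of all genes for which it was the highest was not counted, so this is not shown to be particular to synaptotagmins.

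The genes whose levels followed Syt2 most closely were found by Pearson's r of log2 CPM, taken separately over the 16 aging and the 6 ALS libraries and ranked by the smaller r. The 6 ALS libraries form separate groups for Syt2, and libraries share depth, kit and tissue makeup, so that r is a description. Dzank1 led with r = 0.93 in aging and 0.98 in ALS. It was followed by Tnks (0.87 and 0.99), which encodes tankyrase, Madd (0.87 and 0.99), an exchange factor for Rab3 proteins, and Gabrb2 (0.87 and 0.98), a GABA-A receptor subunit. These 4 genes were lower in both comparisons, by log2 fold changes of -0.18 to -0.43 in aging and -0.43 to -1.46 in ALS, a direction that their choice by likeness to Syt2 favours. In ALS the call was lost for Dzank1 without d4438, d4441 or d4443 (adjusted p up to 0.087), for Tnks without d4441 or d4443 (up to 0.078), for Gabrb2 without d4443 (0.057) and for Madd with limma on log2 FPKM (0.11). In aging limma lost Dzank1 (0.096), Madd (0.091) and Gabrb2 (0.11), and the fit of all libraries lost Dzank1 (0.10). Among the 13610 genes tested in both comparisons, 914 had a smaller r over 0.5. No other synaptotagmin was among them, the nearest being Syt12 at 0.42 in aging and 0.84 in ALS. Syt17 had a negative r in both, at -0.57 and -0.24, where the median smaller r of the genes tested in both comparisons was -0.32.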

How the data were processed

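Spinal cord RNA was sequenced in 22 libraries of 4 groups, assigned by the group named in each column. The authors used STAR for alignment to mm10 and RSEM with the Ensembl 88 annotation for quantification (SAMtools 1.3 per the submitters' processing notes), and deposited expected counts without normalization between libraries. The authors also deposited log2(FPKM + 1) values, turned back here to FPKM. Expected counts were rounded. For each comparison, genes passing filterByExpr (minimum count 10, minimum total 15) were scaled by TMM and tested with edgeR 4.0.16 (R 4.3.3, quasi-likelihood, Benjamini-Hochberg over all genes). SE is the log2 fold change over the root of the F statistic, and 95% intervals are 1.96 SE. That multiplier makes the intervals too narrow with few libraries. In ALS the interval of Syt11, -0.41 to -0.02, left out 0 where edgeR gave an unadjusted p of 0.059. CPM uses TMM library sizes. Positions and symbols are from GENCODE M21, which held 21919 of the 21995 genes. The test was checked on simulated data with 196 to 199 changed genes, far fewer than were called in the data. Of changes of 0.5 and 1 on the log2 scale, 77.0% and 99.0% were recovered in aging, and 3.02% and 82.9% in ALS. A gene that did not pass in ALS may still have changed, by 0.5 or by more. The 95% intervals of Syt1 and Syt9, which did not pass there, reached down to -0.62.

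The genes and lists were chosen with earlier results of these data known. Values were named for all 10 synaptotagmins, for at most 3 genes per list, direction and comparison with the smallest adjusted p, and for the 5 genes most like Syt2, of which 1 is not reported here. Alternatives were DESeq2 1.42.0, RLE factors, other filters, a fit of all libraries, limma 3.58.1 on log2 FPKM, the study's threshold, and each library left out. No pair of libraries of a group agreed within sampling noise (chi-square over degrees of freedom at least 2.36). Between these samples, p-values measure the spread over mice. 3 counts corresponded to 0.227 to 0.591 CPM, and depth covers counting error only.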

Additional observations from a re-analysis of the deposited data

Results flagged for a closer look

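In 4 genes the change in ALS differed from that in aging by a direct test over all 22 libraries: Syt2 by -0.99, Syt3 by -0.66, Syt12 by -0.50 and Syt7 by -0.38 on the log2 scale. That fit pools the spread of all libraries, which understates the spread among SOD1G93A mice for Syt2, Syt3 and Syt7. Library kit, sex and age range differ between the experiments, and their part cannot be told apart from that of the condition.

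In 3 of 20 combinations of gene and group examined, all of them Young or Old, a library lay far from the others of its group. The ALS groups, with 3 libraries each, were too small for this check and were not examined. The highest Old library for Syt1 had 225 CPM where the next had 187. The highest Young library for Syt11 had 1165 CPM where the next had 1102. The lowest Old library for Syt17 had 6.34 CPM where the next had 8.02. Chance alone gives such a gap in about 1 of 20 groups.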

How the results depend on the processing

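Calls on single synaptotagmins depend on which libraries enter and on the processing. The count of lower genes in aging was 3, with 5 by DESeq2 (Syt1 and Syt4 added) and 0 lower and 0 higher when a log2 fold change beyond 1 was also asked. That count was 4 with no filter on low counts. With 10 counts asked of every library, in the fit of all libraries and with limma on log2 FPKM, 2 were lower. Leaving out each aging library gave 2 to 5 lower and 1 higher throughout. In ALS it was 4, with 7 in the fit of all libraries, 1 when a log2 fold change beyond 1 was also asked, and 1 to 7 with each library left out. DESeq2, RLE factors, both filters and limma on log2 FPKM changed no ALS count by more than 1.5 times. The difference test gave 3 to 5 genes with each ALS library left out.

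Directions turned only for values near 0 on the log2 scale. When 10 counts were asked of every library, Syt5 was at 0.00256 and Syt17 at 0.00848 in ALS, and limma on log2 FPKM gave 0.0200 for Syt5. With each library left out in turn, the fold changes in aging ran from -0.00982 to 0.0474 for Syt3 and from -0.0490 to 0.00736 for Syt12. In ALS they ran from -0.0618 to 0.0823 for Syt5 and from -0.225 to 0.172 for Syt17. The difference between ALS and aging ran from -0.117 to 0.0278 for Syt4 and from -0.145 to 0.0167 for Syt5.

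No paired analysis was possible because the columns carry group names and library names but no replicate numbers.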
